A study of Mus musculus with 47 samples.

Results

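The genes described here are those of the cytosolic ribosomal proteins, chosen by symbol alone: every gene in the authors' tables of comparisons whose symbol begins with Rpl or Rps and a digit, together with Rplp0, Rplp1, Rplp2 and Rpsa. Pseudogenes whose symbols hold -ps and the Rps6k kinases were left out. The rule found 88 of the 55416 genes in the count tables and used no fold change or p-value. The authors' tables of comparisons follow the study's own filter on missing values, so genes with few counts could be absent. The rule was set with earlier results of these data known. By role they were 46 proteins of the large (60S) subunit, 31 proteins of the small (40S) subunit and 10 paralogs or retrogene copies (Rpl22l1, Rps27l, Rpl36al, Rps4l, Rpl7l1, Rps27rt, Rpl35rt, Rpl37rt, Rpl6l and Rps3a2). The remaining gene, Rps19bp1, encodes a protein named for binding Rps19 and is not itself a ribosomal protein.

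The RNA sequenced came from brain tissue of 3xTg mice of both sexes, a model of Alzheimer's disease. All groups, Control included, carry the alleles of this model, among them mutant human APP and MAPT transgenes driven in neurons by the Thy1 promoter, so no group without the disease alleles is compared here. From 6 months of age the mice ate a Control diet or a diet restricted in isoleucine (IleR), leucine (LeuR) or valine (ValR) for 9 months. Of 47 labelled samples, 37 were analysed, namely 14 from males (4 on Control, 3 on IleR, 3 on LeuR, 4 on ValR) and 23 from females (6 on Control, 5 on IleR, 6 on LeuR, 6 on ValR), and 10 male samples are not analysed here. The study's methods take the RNA from the left hemisphere, while its results text speaks of the whole brain. The study removed clear outliers before its tests, and the sources do not say whether these 10 samples were among them. The labels do not tie each library to an animal. The study's legends for these data count its groups in animals, but give 4 to 5 mice per male group where 3 or 4 libraries stand here. The p-values measure the spread between the libraries given. A library is named here by its diet and its label's number, such as Control 4.

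A ribosome joins a small subunit, which reads the mRNA, to a large subunit, which forms the peptide bonds, and each ribosomal protein is normally present in 1 copy per ribosome apart from the stalk proteins Rplp1 and Rplp2. Most ribosomal protein mRNAs begin with a run of pyrimidines, the terminal oligopyrimidine (TOP) tract. Through Larp1 and the 4E-BP proteins this tract ties their translation to mTORC1, a kinase complex that responds to amino acids, leucine above all. Such control acts on translation and on the stability of the mRNA, and an mRNA level does not measure translation.

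Windows of 30 bases around the annotated start, from 10 bases before it, are shown for 5 members that are named in the results below, to let the pyrimidine run be seen beside their values. They were taken from the RefSeq promoters of build GRCm38.p6, in which 64 of the 88 members had an entry. Capitals mark the first run of C and T letters, on the sense strand, that began with C within 5 bases of the start and was at least 5 letters long. Rps2 is shown for chr17:24720053-24720082 on the plus strand, Rpl12 for chr2:32961702-32961731 on the plus strand, Rpl31 for chr1:39367841-39367870 on the plus strand, Rplp2 for chr7:141447641-141447670 on the plus strand and Rpl11 for chr4:136053374-136053403 on the minus strand.
Rps2: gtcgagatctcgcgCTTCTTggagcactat
Rpl12: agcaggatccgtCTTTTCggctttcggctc
Rpl31: tcctcgCCTCCCCgtgacccggaagttgta
Rplp2: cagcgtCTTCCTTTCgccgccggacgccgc
Rpl11: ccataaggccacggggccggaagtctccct
The window of Rpl11 held no such run. Among the members called below, Rps2, Rpl12, Rpl31 and Rps27l had the run and Rpl11, Rpl36al, Rpl41 and Rps19bp1 did not. Rpl36, Rplp1 and Rps14 had no entry, and Rplp2, shown as a stalk protein, was not called. Over all members with an entry, 30 of 64 (46.9%) had the run, against 5718 of 27025 genes (21.2%), with 16 of 34 among the 60S members and 11 of 23 among the 40S members. A match describes these letters at the annotated start and is no measurement of the start site used in these brains.

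The total count of a library lay between 12682687 and 25722333 in males and between 10672599 and 21370973 in females. Reads had been turned into estimated counts, which divide a read among the genes it matches. Of all genes in a library, those without a count included, 3.69% to 4.93% had a fractional value, which is no share of the reads. The division of reads matters for ribosomal protein genes because they have many processed copies: 87 of the 88 members shared at least 1 stretch of 31 bases with another annotated gene, and 10 shared at least 50% of theirs. Among the genes named below, Rpl36 shared 94.1%, Rplp1 75.1%, Rps2 48.8% and Rps19bp1 0%. The labels give brain as the tissue while the extraction text names liver. Snap25, a synaptic protein of neurons, lay between 797 and 2084 CPM (a gene's count relative to the library total as scaled by the TMM method), and albumin (Alb), the main protein made by liver, lay between 0 and 7.33 CPM.

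Brain regions were not represented alike in the libraries. A hindbrain score was taken as the mean log2 CPM of marker genes of cerebellum, brainstem and spinal cord minus that of forebrain markers, with 8 genes in each of the 3 lists. In males it lay from −7.44 to −5.00 in Control, 2.24 to 4.87 in IleR, −2.82 to 4.57 in LeuR and 4.78 to 6.21 in ValR, so that Control did not overlap with any restricted group. The summed level of the 8 cerebellar markers was 33.4 to 81.5 CPM in Control males and 225 to 4649 CPM in restricted males. That of the 8 forebrain markers was 314 to 758 CPM against 31.5 to 189 CPM. Cell type markers are given beside this, and their ranges in Control and restricted males overlapped. The 6 neuronal markers summed to 3855 to 5339 CPM in Control and 3264 to 4201 CPM in restricted males, the 6 astrocyte markers to 1775 to 2589 against 2103 to 4145 CPM, and the 6 oligodendrocyte markers to 4561 to 9564 against 6433 to 18029 CPM. The 5 blood markers reached 19630 CPM in a LeuR male. The 6 microglial markers summed to 346 to 405 against 234 to 431 CPM, with medians of 375 CPM in Control and 267 CPM in ValR. The 4 endothelial markers summed to 177 to 234 against 159 to 276 CPM, and the 6 choroid plexus markers to 9.13 to 2939 against 13.6 to 4705 CPM. No relation of these sums to the score was tested. In females the score ran from −7.02 to 4.64 and overlapped between all diets. Beside the counts of called members in males stand the counts from a fit with the score as a covariate, and for the called members the slope on the score among females. Since the score set Control apart from every restricted group of males, that fit cannot tell diet from regional make-up in them.

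All 88 members, taken from tables that the study had already filtered, passed the filter on low counts in both sexes. They stood among 22197 genes tested in males and 20344 in females. To compare genes, levels were divided by transcript length, and in Control males the median of the members was 166 CPM per kb (168 in Control females). The highest was the stalk protein Rplp1, at 752 ± 35.5 CPM per kb in males (SD, n = 4) and 770 ± 107 in females (SD, n = 6). Rps15, a 40S protein near the decoding site, followed at 384 ± 45.2 and 387 ± 29.0 CPM per kb, and Rpl41, the shortest 60S protein, at 333 ± 12.0 and 370 ± 51.7. Mean ± SD of Rplp1 lay apart from that of the other 2, while those of Rps15 and Rpl41 overlapped in both sexes.

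**Figure D1:**
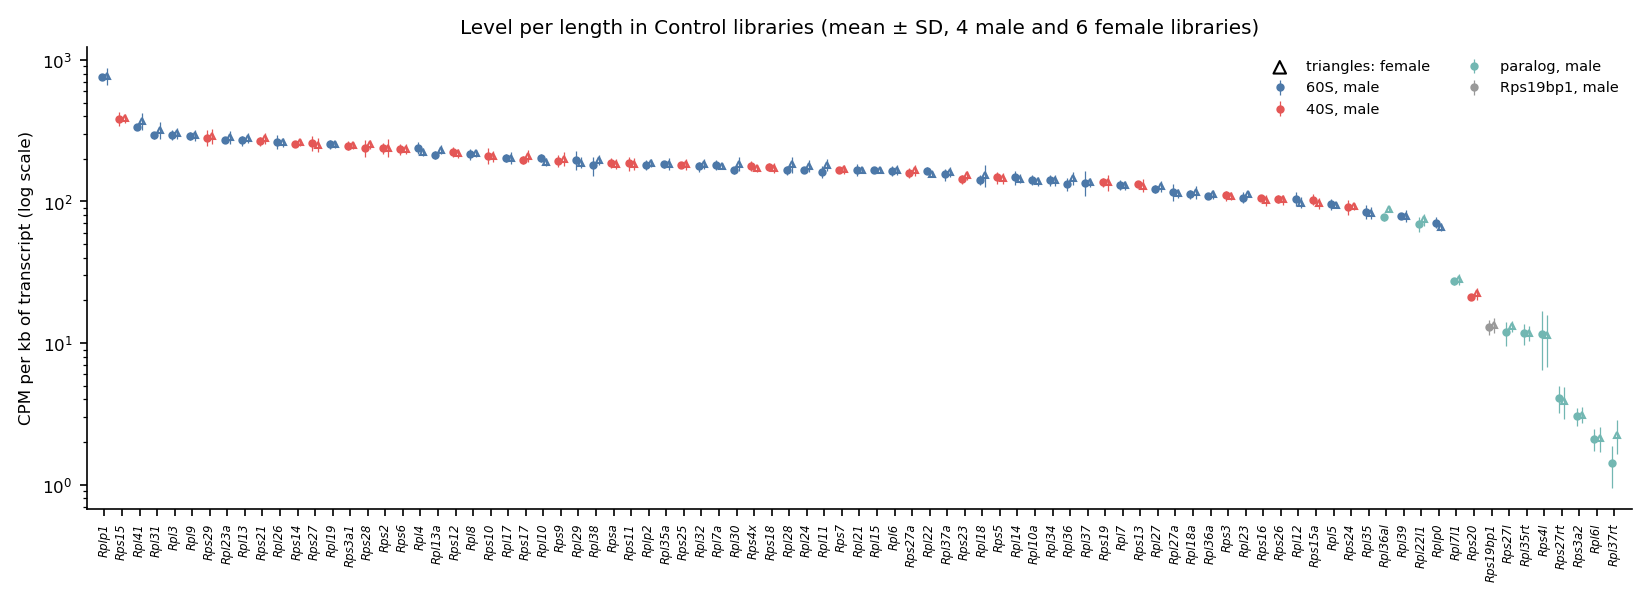
Level of 87 of the 88 members in Control libraries, in CPM per kb of transcript on a log axis, as mean ± SD of 4 male (circles) and 6 female (triangles) libraries, ordered by level and coloured by subunit. Rplp1 stands highest at 752 CPM per kb in males, and the lowest members are retrogene copies at a few CPM per kb.

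The lowest levels per length were those of retrogene copies. In Control males Rpl37rt stood at 1.41 ± 0.467, Rpl6l at 2.11 ± 0.375 and Rps3a2 at 3.03 ± 0.459 CPM per kb (SD, n = 4), and Rps27rt followed at 4.09 ± 0.880. The 60S members spanned 71.0 to 752 CPM per kb in Control males and the 40S members 21.1 to 384, with Rps20, whose annotated transcript is 3706 bases long, at the low end. The 10 paralogs and copies spanned 1.41 to 77.1 CPM per kb. The 3 tissue-restricted paralogs of the testis and muscle, Rpl10l, Rpl39l and Rpl3l, are not among the 88 and reached at most 0.0682, 0.191 and 0.537 CPM in any library.

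Libraries of the same group differed little in these genes. The median within-group SD of the log2 CPM of the members was 0.13, against 0.22 for the 13904 genes whose mean log2 CPM was 1 or more, and 4 of the 85 members at that level lay above the latter. The sets were not matched by level, as the median member stood at 113 CPM in Control males. The lower SD is thus not shown to be particular to these genes. The steadiest were Rpl5 (SD 0.08), which carries the 5S RNA into the large subunit, Rps3 (0.09), at the entry of the mRNA channel, and Rpl7 (0.09). Among those 85 the most variable were Rps3a2 (0.93), Rps4l (0.43) and Rpl29 (0.28). For Rps3a2 and Rpl29, 2 female libraries described further below lay far from the others.

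Valine restriction in males gave the largest number of called members by edgeR, and all of them were lower. DESeq2 called 9 lower for ValR, where it called 14.2% of all genes lower, and 9 higher for LeuR, where it called 6.74% of all genes higher. Without Control 4 edgeR called 9 higher and 1 lower for LeuR, where 7.9% and 9.75% of all genes were, and 1 higher and 7 lower for ValR, where 11.7% and 13.1% were. Compared with Control-fed males, 7 of 88 members fell in ValR-fed males and 0 rose (adjusted p under 0.05, quasi-likelihood test of edgeR, adjusted over all genes by Benjamini-Hochberg), where 12.4% of all genes tested were called lower and 11.1% higher. The share of members called lower was thus below that of all genes. By subunit the 7 were 4 of 46 60S members (Rpl12, Rplp1, Rpl41 and Rpl31), 2 of 31 40S members (Rps2 and Rps14) and Rps19bp1. The median log2 fold change was −0.05 over the 88 members and 0.03 over all genes, and 61 members had a negative value. At an unadjusted p under 0.05, 10 members were lower and 3 higher, against backgrounds of 17.5% and 17.7%. Without ValR 9 these were 18 lower and 0 higher, and the 3 higher were 0 without Control 1 and 2 without Control 3 or Control 5.

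Rps2 (chr17:24718116-24721929, ENSMUSG00000044533) encodes a protein at the mRNA entry of the small subunit. Its level was 233, 270, 228 and 224 CPM in Control 1, 3, 4 and 5 and 177, 191, 160 and 156 CPM in ValR 7, 9, 10 and 12. Every ValR library lay below every Control library. The log2 fold change was −0.48 (SE 0.11) with an adjusted p of 0.00782 by edgeR's quasi-likelihood test.

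Rpl12 (chr2:32961559-32965345, ENSMUSG00000038900), which anchors the stalk to the large subunit, stood at 120, 147, 118 and 137 CPM in the Control males. In ValR males it stood at 97.7, 107, 90.6 and 93.0 CPM, with no overlap. Its log2 fold change was −0.42 (SE 0.10, adjusted p = 0.00850 by edgeR). Rplp1 (chr9:61913284-61914542, ENSMUSG00000007892), a stalk protein that recruits elongation factors, was at 372, 401, 363 and 364 CPM in Control and 298, 333, 260 and 265 CPM in ValR. These groups were again apart, and the log2 fold change was −0.38 (SE 0.10, adjusted p = 0.0157 by edgeR).

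Rpl41 (chr10:128548114-128549305, ENSMUSG00000093674) was at 143, 153, 145 and 141 CPM in Control males and 119, 132, 108 and 106 CPM in ValR males, a log2 fold change of −0.33 (SE 0.09, adjusted p = 0.0189 by edgeR). Rpl31 (chr1:39367842-39371911, ENSMUSG00000073702), at the rim of the peptide exit tunnel, was at 155, 140, 142 and 135 CPM against 122, 124, 111 and 113 CPM, a log2 fold change of −0.28 (SE 0.08, adjusted p = 0.0175 by edgeR). Neither gene had a ValR library within the Control range. Rps14 (chr18:60747098-60778546, ENSMUSG00000024608), a protein of the 40S platform, was at 147, 160, 151 and 147 CPM against 133, 130, 125 and 134 CPM, which also did not overlap. Its log2 fold change was −0.21 (SE 0.07, adjusted p = 0.0396 by edgeR).

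Rps19bp1 (chr15:80260615-80264315, ENSMUSG00000051518) was at 12.3, 11.4, 9.10 and 10.8 CPM in Control males and 7.77, 6.94, 8.67 and 9.11 CPM in ValR males, so that ValR 12 reached the lowest Control library. Its log2 fold change was −0.42 (SE 0.14, adjusted p = 0.0476 by edgeR). Of the 7 genes it is the 1 whose libraries overlapped. For these and all other called members, the genes were picked by the same values. A lack of overlap is thus no support beyond the call, and its share over all called genes was not counted.

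**Figure D2:**
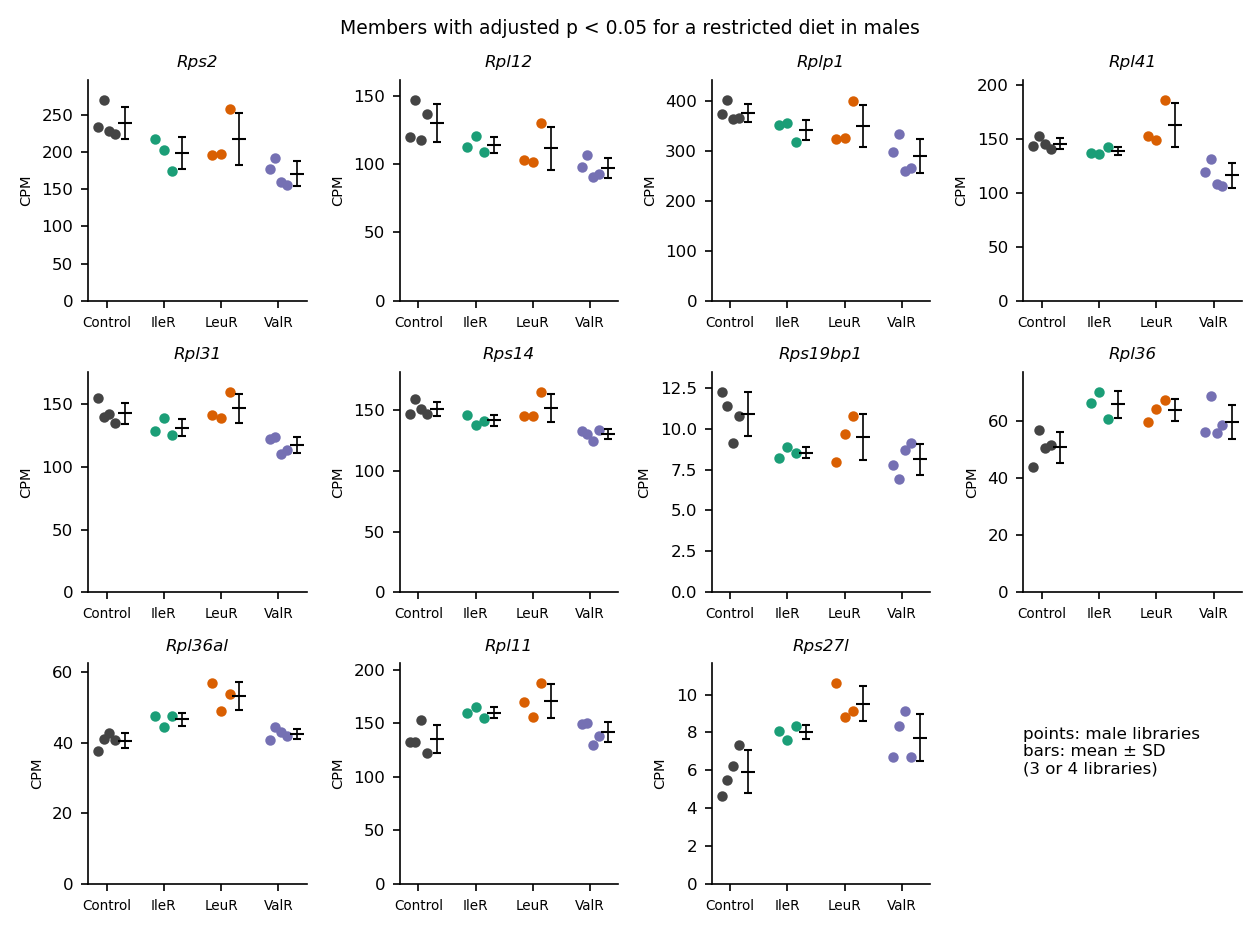
Level in CPM of the 11 members called for a restricted diet in males, with 1 point per male library and bars for mean ± SD (n = 3 or 4), on axes that start at 0. Rps2, Rpl12, Rplp1, Rpl41, Rpl31 and Rps14 have all 4 ValR points below the Control points, while Rpl36, Rpl36al, Rpl11 and Rps27l have their called diet above Control.

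The ValR comparison was also fitted with the hindbrain score, although the score set Control and ValR males apart. With the score as a covariate 0 members were called (0 at an unadjusted p under 0.05 as well), the median of the members became 0.19, against 0.04 over all genes, and Rps2, Rpl12, Rplp1, Rpl41, Rps14 and Rps19bp1 had positive log2 values of 0.10, 0.05, 0.00, 0.00, 0.06 and 0.30. In that fit 0 of 22197 genes were called, with 4.39% higher and 3.7% lower at an unadjusted p under 0.05, so the loss of the calls was not particular to the members. Rpl31 stayed negative at −0.12 with an adjusted p of 0.894 by edgeR. Control and ValR males did not overlap in the score, so that diet and regional make-up cannot be told apart from these groups themselves. Neither the lost calls nor the changed signs decide between them. Leaving out 1 library at a time gave 2 to 9 lowered members, with 4 without Control 1, 4 without Control 3 and 2 without ValR 10, and Rps2 and Rpl12 passed in all 14 such fits.

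The females, in which the score varied within each diet, allowed the same relation to be read apart from the male diets. In a fit chosen after the data had been seen, with diet and the score in the model over 23 female libraries, 43 members fell with the score and 2 rose (Rpl7l1 and Rpl18), where 23.8% of all genes tested fell and 21.6% rose. The 43 were 25 60S members, 16 40S members, 1 paralog and Rps19bp1, and 80 of the 88 slopes were negative. The 7 members lower in ValR males were among the 43, as 90.8% of all genes lower in ValR males and tested in females also fell with the score (2471 of 2721). The slope was −0.06 log2 units per unit of score for Rps2 (adjusted p = 1.76e-06, edgeR), −0.06 for Rpl12 (1.28e-07), −0.06 for Rplp1 (4.28e-05) and −0.06 for Rpl41 (0.000136). Rps2 was lowest in the female libraries with high scores, at 148 CPM in LeuR 45 and 176 CPM in ValR 36, where the medians of the female groups were 235 to 250 CPM. Without LeuR 45 and ValR 36, whose scores lay farthest from the median, 12 members fell and 2 rose, where 16.6% of all genes fell and 18.7% rose, so that the share of members falling was then below that of all genes. Rps2, Rpl12, Rplp1, Rpl41 and Rpl31 were among the 12, and Rps14 and Rps19bp1 were not.

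**Figure D3:**
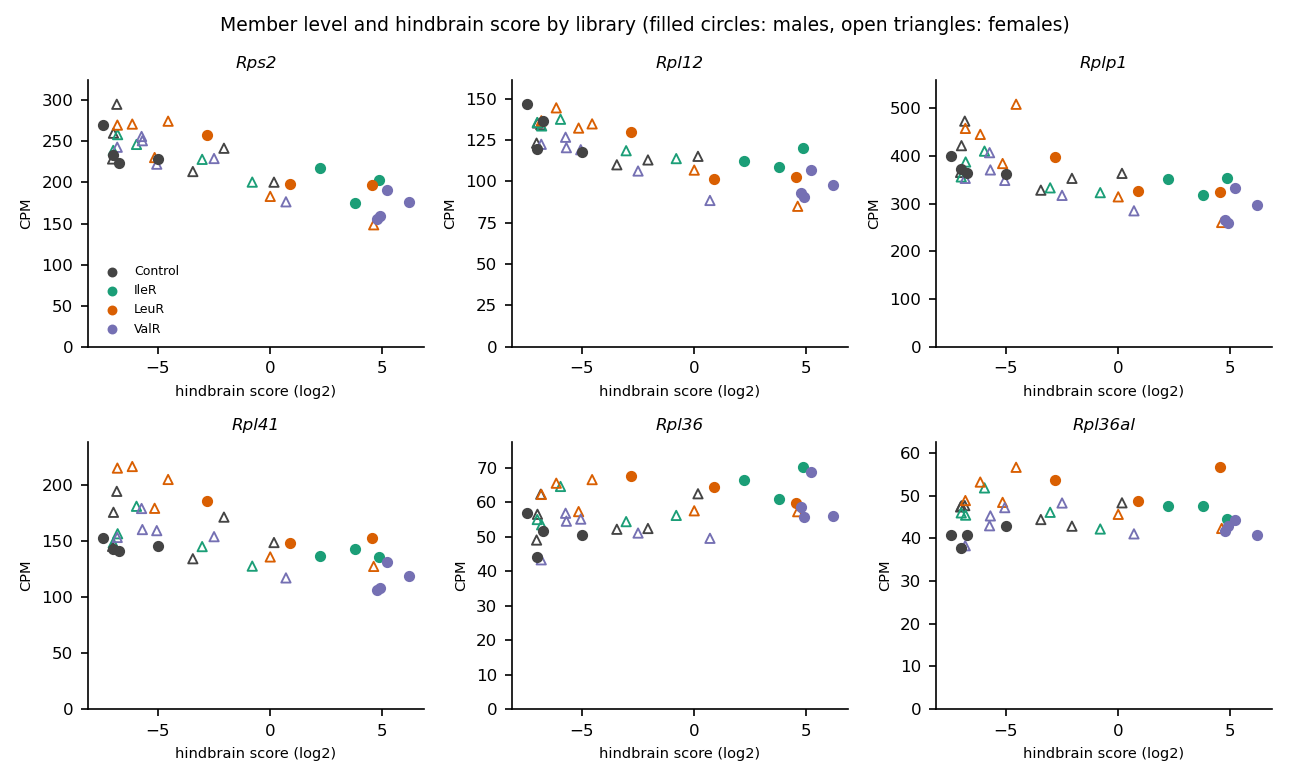
Level in CPM of 6 members against the hindbrain score of the library (log2 units) in 14 male (filled circles) and 23 female (open triangles) libraries coloured by diet. Among the females Rps2, Rpl12, Rplp1 and Rpl41 fell with the score and Rpl36 and Rpl36al had no called slope, while no slope was fitted in males, where Rpl41 in LeuR 21 stood highest at 186 CPM.

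Leucine restriction in males gave calls in the other direction. Here 3 of 88 members rose and 0 fell compared with Control-fed males, where 3.81% of all genes were called higher and 6.33% lower, so the share of members called higher (3 of 88) was close to that background. The 3 were the paralogs Rps27l and Rpl36al and the 60S protein Rpl11. The median log2 fold change of the members was 0.10 against 0.05 over all genes, and 73 of 88 were positive. At an unadjusted p under 0.05, 16 members were higher and 1 (Rpl29) lower, against backgrounds of 13.6% and 13.5%. The 16 were 8 without Control 5 and 9 without Control 1 or LeuR 21, and the 1 lower was 0 without Control 3 or LeuR 19, 2 without Control 1 or Control 4 and 3 without LeuR 21.

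Rpl36al (chr12:69182731-69184083, ENSMUSG00000049751), an intronless copy of Rpl36a that makes nearly the same protein, was at 37.7, 40.9, 42.8 and 40.8 CPM in Control males and 56.9, 48.9 and 53.7 CPM in LeuR 19, 20 and 21. The groups did not overlap, with a log2 fold change of 0.39 (SE 0.08, adjusted p = 0.0103 by edgeR). Rps27l (chr9:66946086-66949516, ENSMUSG00000036781), a paralog of Rps27 known as a target of p53, was at 4.63, 5.50, 6.24 and 7.32 CPM in Control and 10.6, 8.84 and 9.14 CPM in LeuR. All LeuR libraries lay above all Control libraries, and the log2 fold change was 0.69 (SE 0.18, adjusted p = 0.0283 by edgeR).

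Rpl11 (chr4:136028265-136053428, ENSMUSG00000059291), which with Rpl5 and the 5S RNA can bind the p53 regulator Mdm2, was at 133, 132, 153 and 122 CPM in Control males. Its LeuR values of 170, 156 and 188 CPM were all higher, with Control 4 and LeuR 20 the closest. The log2 fold change was 0.34 (SE 0.09, adjusted p = 0.0376 by edgeR). The parents of the paralogs were not called: Rps27 had a mean of 89.0 ± 11.1 CPM in Control (SD, n = 4) and 95.6 ± 20.9 in LeuR (SD, n = 3), and Rpl36a had 52.5 ± 2.42 and 59.2 ± 7.81.

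With the hindbrain score as a covariate 0 members were called for LeuR (7 higher at an unadjusted p under 0.05, where 4.77% of all genes were), 11 genes in all were called higher and 0 lower, and the log2 fold changes of the 3 were positive under each of 10 alternative settings, at 0.33 to 0.40 for Rpl36al, 0.51 to 0.70 for Rps27l and 0.33 to 0.35 for Rpl11. Control and LeuR males did not overlap in the score, so that fit cannot tell diet from regional make-up. Among the females the slopes on the score of Rpl36al, Rps27l and Rpl11 were not called, with adjusted p of 0.0971, 0.266 and 0.210 by edgeR. The count depended on single libraries: 1 member was called without Control 1, 1 without Control 3, 9 higher and 1 lower without Control 4, 0 without LeuR 19, 2 higher and 1 lower without LeuR 21, 2 higher without Control 5, IleR 13, IleR 14, IleR 17, ValR 7 or ValR 12 and 5 without ValR 9. In a fit of only Control and LeuR 0 members and 0 genes in all were called, and the 9 members higher at an unadjusted p under 0.05 were near the 9.91% of all genes.

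Isoleucine restriction in males gave 1 called member by edgeR, where DESeq2 called 5 higher (8.36% of all genes) and edgeR after the filter filterByExpr 4 (9.13% of all genes). Rpl36 rose in IleR-fed males and 0 members fell, where 6.63% of all genes were called higher and 8.68% lower. The median of the members was 0.10 against 0.04 over all genes, with 72 positive values. At an unadjusted p under 0.05, 11 members were higher and 2 lower (Rps2 and Rps19bp1), against backgrounds of 14.8% and 14.9%. The 11 were 5 without IleR 13 and 6 without Control 1 or IleR 14, and the 2 lower were 0 without Control 1, Control 3, IleR 14, IleR 17 or ValR 7 and 1 without Control 5, IleR 13 or ValR 10.

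Rpl36 (chr17:56613416-56614243, ENSMUSG00000057863), a small 60S protein, was at 44.0, 56.9, 50.6 and 51.6 CPM in Control males and 66.5, 70.3 and 60.8 CPM in IleR 13, 14 and 17. The groups were apart, with a log2 fold change of 0.38 (SE 0.10, adjusted p = 0.0259 by edgeR). In LeuR and ValR males the same gene had log2 fold changes of 0.33 and 0.23 with adjusted p of 0.0589 and 0.0974 by edgeR, and all 3 comparisons share the Control libraries. Most of its sequence is shared with copies, as given above. With the score as a covariate 0 members were called, as were 3 genes in all, and 4 members were higher at an unadjusted p under 0.05 where 3.84% of all genes were. The adjusted p of Rpl36 was then 0.656 by edgeR with a log2 fold change of 0.57, and its slope on the score among females was not called (adjusted p = 0.648, edgeR). Control and IleR males did not overlap in the score, so the fit with it cannot tell diet from regional make-up. Without the score, the number of called members was 0 without Control 1, Control 5, IleR 13 or IleR 14, 4 without Control 4, 3 without IleR 17 and 4 without LeuR 21.

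**Figure D4:**
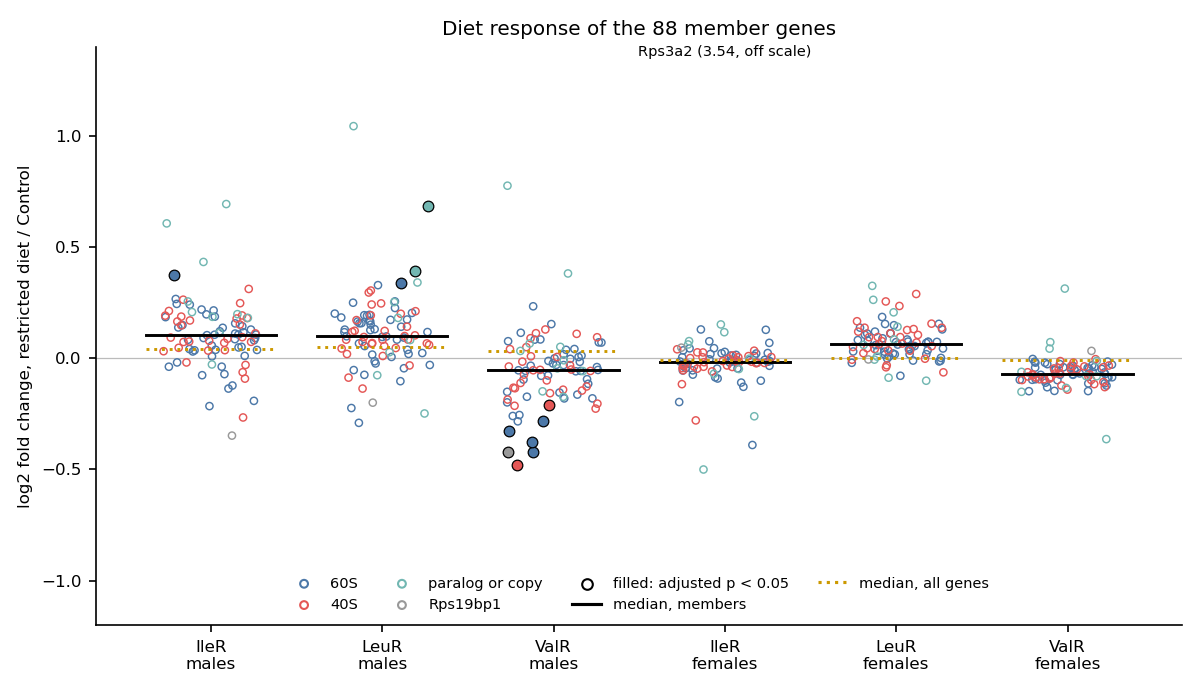
Log2 fold change of each member for each restricted diet against Control, in males and females, with 1 point per gene coloured by subunit, filled where the adjusted p was under 0.05, and bars at the median of the members (black) and of all genes (dotted). Members centre on 0.10 for IleR and LeuR males and on −0.05 for ValR males, and no female point is filled.

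The restricted diets were also compared with each other, with the Control libraries used for the shared spread alone. Between ValR and LeuR males 2 members differed, both lower in ValR, where 1.03% of all genes tested were called lower. DESeq2 called 9 lower, where 4.71% of all genes were, and a fit of only these groups called 0 of all genes lower, with 13 members lower at an unadjusted p under 0.05 where 10.5% of all genes were. They were Rpl41, with a log2 fold change of −0.48 (SE 0.10, adjusted p = 0.0481 by edgeR) from 153, 149 and 186 CPM in LeuR and the ValR values above, and Rpl36al, with −0.32 (SE 0.08, adjusted p = 0.0491 by edgeR) against 40.8, 44.3, 43.0 and 41.8 CPM in ValR. Neither gene had overlapping libraries. At an unadjusted p under 0.05, 24 members were lower in ValR and 0 higher, where 11.5% of all genes were lower, and the median of the members was −0.19 against −0.05 for all genes. The 24 included Rpl3, which lines the peptidyl transferase centre, Rpl10, Rps2, Rplp1 and Rps14. The score in ValR males was above that in all 3 LeuR males, and with the score as a covariate 0 members were called and 3 were lower at an unadjusted p under 0.05, where 7.24% of all genes were. The unadjusted count of 24 was 4 without LeuR 21, 15 without ValR 10, 15 without ValR 12, 16 without ValR 7, 36 without LeuR 20 and 41 without ValR 9. Of 14 fits that each left out 1 library, 0 members were called without Control 1, Control 3, Control 5, IleR 14, LeuR 21, ValR 7, ValR 10 or ValR 12, and 1 without IleR 13 or LeuR 19.

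Between ValR and IleR males 0 members were called by edgeR, and 10 were lower in ValR at an unadjusted p under 0.05 with 0 higher, where 1.96% of all genes were lower. The median of the members was −0.16 against 0.00 for all genes, and 86 of 88 values were negative, all 46 60S and all 31 40S members among them. The count of 10 was 2 without ValR 10, 3 without IleR 14, 3 without ValR 12, 4 without IleR 13, 6 without Control 1, Control 5 or ValR 7, 17 without LeuR 21, 22 without IleR 17 and 23 without ValR 9, and with the score as a covariate it was 2, where 1.91% of all genes were lower. A fit of only these groups gave 18 lower at an unadjusted p under 0.05, where 793 of 21125 genes were. Without a filter on low counts it was 6, where 458 of 30870 genes were. DESeq2 also called 0 members. Between IleR and LeuR males 0 members were called by edgeR or DESeq2, 2 (Rpl36al and Rpl41) were lower in IleR at an unadjusted p under 0.05 where 4.75% of all genes were lower, and the medians were −0.01 and −0.03. The count of 2 was 0 without IleR 14 or LeuR 21 and 1 without Control 1, Control 3, Control 5, IleR 13, IleR 17, LeuR 19, ValR 7 or ValR 10. With the score as a covariate 1 member was lower and 1 higher at an unadjusted p under 0.05, where 3.93% and 6.76% of all genes were.

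Added together, the members took 0.936% to 1.34% of the counts of a library. In males the share was 1.03% ± 0.0834 in Control (SD, n = 4), 1.19% ± 0.0715 in IleR (SD, n = 3), 1.19% ± 0.134 in LeuR (SD, n = 3) and 1.04% ± 0.0726 in ValR (SD, n = 4). The lowest male library was Control 1 at 0.936% and the highest LeuR 21 at 1.34%, and the Control libraries (up to 1.13%) overlapped with each restricted group. After TMM scaling, as used for CPM, the male means were 1.09% in Control, 1.15% in IleR, 1.16% in LeuR and 1.02% in ValR, so that the ValR mean then lay below the Control mean, and the libraries of these groups overlapped. In females the unscaled share was 1.09% ± 0.0753 in Control (SD, n = 6), 1.08% ± 0.0763 in IleR (SD, n = 5), 1.17% ± 0.0996 in LeuR (SD, n = 6) and 1.06% ± 0.0740 in ValR (SD, n = 6), with overlap between all groups. The counts of 60S members were 1.53 to 1.66 times those of 40S members in every library. In bulk tissue less RNA per cell and fewer cells of a type cannot be told apart.

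In females no member passed the test. For each of IleR, LeuR and ValR against Control 0 of 88 members were called by edgeR, and the background was 0% (0 of 20344 genes) in each comparison. At an unadjusted p under 0.05 the members numbered 1 higher (Rps3a2) and 1 lower (Rpl29) for IleR, 3 higher for LeuR and 0 for ValR, against 2.84%, 4.03% and 3.82% of all genes. For IleR the higher count was 2 without Control 30, IleR 38, IleR 42, LeuR 47 or LeuR 48 and 3 without IleR 41, and the lower count ran from 0, as without IleR 39 or IleR 40, to 2 without IleR 38 and 5 without IleR 42. For ValR there were 3 lower without Control 28, 1 lower without ValR 33 and 1 higher without Control 27. DESeq2 called Rps3a2 for IleR (0.0393% of all genes higher) and 0 members for LeuR and ValR.

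For LeuR the 3 unadjusted members were 15 without LeuR 45, 13 without Control 25, 10 without Control 30, 7 without LeuR 48, 6 without ValR 35, 5 without IleR 39 or IleR 40 and 1 without LeuR 43, and 14 with the score as a covariate, where 2.4% of all genes were higher. Rpl28, a 60S protein, lay at 116, 140 and 169 CPM (lowest, median and highest) in Control females and 148, 162 and 171 CPM in LeuR females, a log2 difference of 0.19 (SE 0.07, adjusted p = 0.968 by edgeR). Rps27 lay at 78.3, 84.6 and 104 CPM against 77.4, 110 and 125 CPM, a difference of 0.29 (SE 0.11), and Rps28 at 62.6, 69.0 and 75.0 CPM against 62.3, 84.2 and 94.3 CPM, a difference of 0.26 (SE 0.10). These groups overlapped for all 3 genes. The median of the members was 0.07 for LeuR against 0.00 for all genes, and 73 of 88 values were positive.

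For ValR females 84 of 88 values were negative, with a median of −0.07 against −0.01 for all genes and a median SE of 0.08. The smallest unadjusted p among members belonged to Rpl38, which acts in the translation of Hox mRNAs, and Rps14 was among the next. Rpl38 had a log2 difference of −0.15 (SE 0.08) and Rps14 −0.11 (SE 0.07), both with an adjusted p of 1.00 by edgeR. Rps2, the leading gene of ValR males, lay at 200, 235 and 295 CPM in Control females and 176, 236 and 256 CPM in ValR females.

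The difference between the sexes in the diet response was tested itself, in 1 fit of 37 libraries. For no diet did a member pass: 0 members were called for the IleR, LeuR and ValR interactions by edgeR, where 0.0979%, 0.00445% and 4.25% of all genes were. At an unadjusted p under 0.05 there were 8 members with a higher fold change in males than in females and 2 with a lower one under IleR. Under LeuR there were 4 higher and 0 lower and under ValR 2 higher and 3 lower, against 19.1%, 13% and 26% of all genes. Without female IleR 39 and IleR 40 the IleR counts were 1 and 0, and without IleR 39 alone 3 and 1. The higher count was also 3 without male Control 1 or IleR 13, 4 without male IleR 14, 5 without male Control 5 or female Control 25, Control 30 or IleR 40, 12 without male ValR 9 or female Control 27, Control 28, IleR 41 or LeuR 45, 15 without male Control 3 or Control 4, 16 without male IleR 17 and 17 without female IleR 42. The LeuR count of 4 was 2 without male Control 5 or LeuR 21, 6 without male Control 3, 7 without female Control 28 or LeuR 43 and 8 without male Control 4 or LeuR 20. The ValR counts were 1 to 5 higher and 1 to 3 lower when 1 library was left out, with 5 higher without male Control 4, 4 higher without male Control 3 or ValR 12, and 1 lower without male Control 3, ValR 10 or ValR 12 or female Control 27, Control 30, ValR 33 or ValR 34. The smallest adjusted p was that of Rps3a2 for IleR, at −3.36 (SE 0.91, adjusted p = 0.0769 by edgeR), a gene whose female values are taken up next. Rps19bp1 followed for ValR at −0.48 (SE 0.17, adjusted p = 0.0900 by edgeR), and Rps2 had −0.43 (SE 0.20, adjusted p = 0.156 by edgeR). With the score as a covariate 0 members were called, and 55, 24 and 18 members had a higher fold change in males at an unadjusted p under 0.05 for IleR, LeuR and ValR, where 4.25%, 9.54% and 2.77% of all genes did. DESeq2 called 1 member lower for IleR, where 3.98% of all genes were, 0 for LeuR and 1 higher for ValR, where 3.55% of all genes were. For IleR 1 member was called without male Control 4, without female IleR 41 or without female LeuR 45.

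In both IleR 39 and IleR 40, among the 5 IleR females, 8 of 88 members (9.09%) lay outside the range of the other females, as did 455 of the 20344 genes tested (2.24%), a description of these libraries with no test. Rps3a1, Rpl29, Rpl34, Rps13, Rpl22 and Rpl10a lay below it and Rps3a2 and Rplp0 above it. Rps3a1 (chr3:86137940-86142702), the expressed gene of a 40S protein near the mRNA exit, was at 100 and 160 CPM in these libraries and at 210 to 273 CPM in the other 21 female libraries. Its retrogene Rps3a2 (chr14:88123017-88123808) was at 82.8 and 52.4 CPM against 1.83 to 3.30 CPM. A further copy, Rps3a3 (chr13:108670603-108671397), which is not a member, was at 56.2 and 35.8 CPM against at most 0.136 CPM. The 3 genes added up to 239 and 248 CPM in IleR 39 and 40, within the 213 to 275 CPM of the other females.

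The copies differ from the parent by few bases, which is shown here by a stretch of coding bases 201 to 260 on the sense strand from the GENCODE M21 transcripts. Capitals mark the positions at which the 3 differ, and the stretch was chosen after the values were seen. Over the coding sequence Rps3a2 differed from Rps3a1 at 4 of 792 aligned bases and Rps3a3 at 9 of 795.
Rps3a1: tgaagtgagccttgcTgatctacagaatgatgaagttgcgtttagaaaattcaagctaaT
Rps3a2: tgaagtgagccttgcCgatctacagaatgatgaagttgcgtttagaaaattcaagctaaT
Rps3a3: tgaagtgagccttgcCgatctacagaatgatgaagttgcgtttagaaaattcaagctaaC
Of the 31-base stretches of Rps3a2, 84.8% also occur in Rps3a1, so a read from either may fit both.

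Parents below and copies above the other females were also seen for Rpl29, Rpl34 and Rps13. Rpl29, a 60S protein, was at 39.2 and 59.9 CPM in IleR 39 and 40 against 84.7 to 123 CPM in the other females, and its copies Gm13841 and Gm8210 were each at 25.8 and 16.1 CPM against at most 0.230 CPM. Together they gave 90.9 and 92.2 CPM. Rpl34 was at 37.4 and 48.7 CPM against 60.4 to 77.2 CPM, and Rpl34-ps1 at 18.2 and 11.1 CPM against at most 0.228 CPM. Their sum of 55.6 and 59.8 CPM lay just below the range of the other females, 60.5 to 77.3 CPM. Rps13, a 40S protein, was at 60.3 and 62.5 CPM against 67.6 to 90.2 CPM, and Rps13-ps1 at 13.5 and 8.24 CPM against at most 0.477 CPM. The pattern was not particular to ribosomal proteins, since Eno1, a glycolytic enzyme, was at 497 and 541 CPM against 615 to 915 CPM and its copy Eno1b at 315 and 207 CPM against at most 3.63 CPM. The copies of Rpl29 share 79.5% of their 31-base stretches with it, and Rpl34-ps1 shares 80.9% with Rpl34. Among the remaining members, Rpl22 was at 64.8 and 63.9 CPM against 68.5 to 86.5 CPM and Rpl10a at 90.2 and 86.7 CPM against 92.4 to 112 CPM. Rplp0 was higher, at 114 and 107 CPM against 83.9 to 102 CPM, and its log2 difference for IleR females was 0.13 with these libraries and 0.01 without them. These genes were singled out after their values were seen, and the cause was not tested.

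**Figure D5:**
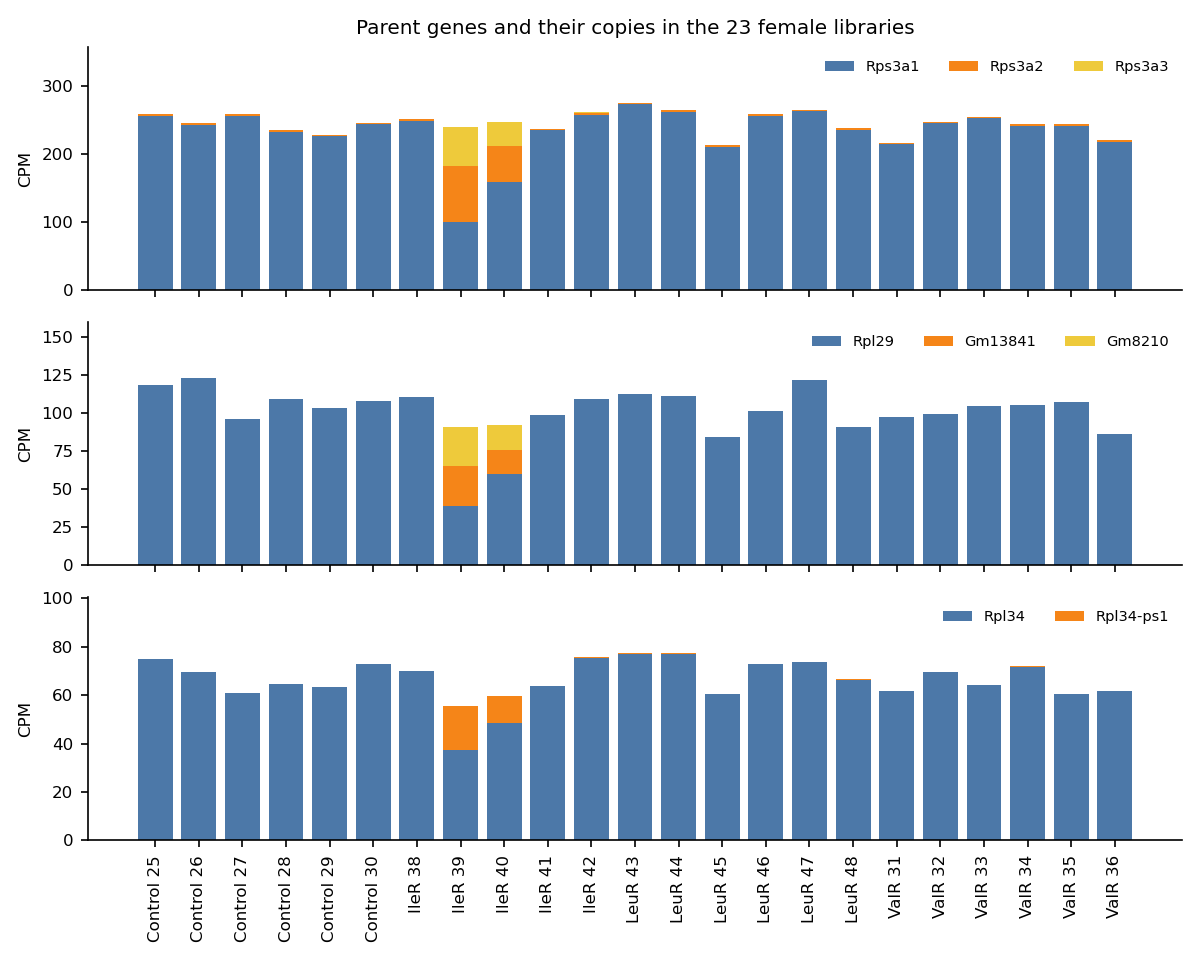
Stacked levels in CPM of Rps3a1, Rpl29 and Rpl34 (blue) and of their copies in each of the 23 female libraries, on axes that start at 0. IleR 39 and IleR 40 have large parts from the copies, such as 82.8 and 52.4 CPM of Rps3a2, while the height of the Rps3a stack is like that of the other libraries.

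Both libraries bear on the values of these members for IleR females. Rps3a2 had 3.30, 82.8, 52.4, 2.67 and 2.92 CPM in IleR 38, 39, 40, 41 and 42 and 2.06 to 2.93 CPM in Control females, a log2 fold change of 3.54 (SE 0.67, adjusted p = 0.140 by edgeR). Without IleR 39 and IleR 40 it was 0.26, and Rpl29 moved from −0.39 to −0.05, with 0 members at an unadjusted p under 0.05. With either IleR 38, IleR 41 or IleR 42 left out, edgeR called Rps3a2.

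The stalk of the large subunit, made of Rplp0 and pairs of Rplp1 and Rplp2, had 1 called protein in males. Rplp1 fell in ValR males as given above. Rplp0, the base of the stalk, was at 96.4 ± 8.50 CPM in Control males (SD, n = 4) and 99.2 ± 7.02 in ValR males (SD, n = 4), with a log2 difference of 0.04 (SE 0.09). Rplp2 was at 76.5 ± 5.75 and 73.7 ± 3.91 CPM (SD, n = 4 each), with −0.05 (SE 0.07), and neither passed the test in any comparison. The difference in response between the 3 genes was not tested.

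Members of special interest for nutrient signaling were not called. Rps6, the 40S protein that S6 kinase phosphorylates downstream of mTORC1, was at 184, 216, 222 and 198 CPM in Control males, 258, 256 and 224 CPM in IleR, 265, 222 and 269 CPM in LeuR and 232, 245, 212 and 209 CPM in ValR. IleR males lay above Control males, with a log2 difference of 0.26 (SE 0.10, adjusted p = 0.102 by edgeR), while LeuR 20 lay within the Control range, with 0.30 (SE 0.10, adjusted p = 0.0832). Rps27a, which is made as a fusion with ubiquitin, had 0.31 (SE 0.11, adjusted p = 0.0643 by edgeR) for IleR males. Rpsa, also known as a laminin receptor, had −0.19 (SE 0.13) for ValR males and was at 300 ± 25.3 CPM in Control and 264 ± 33.1 in ValR (SD, n = 4 each). In females the log2 differences of Rps6 lay between −0.01 and 0.07.

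Among the paralogs Rps4l, a retrogene of the X-linked Rps4x, had the largest log2 differences from Control in males. It was at 7.97, 13.0, 16.9 and 6.09 CPM in Control, 18.8, 22.5 and 11.8 CPM in IleR, 25.2, 20.0 and 22.7 CPM in LeuR and 19.1, 27.7, 13.8 and 14.7 CPM in ValR. The log2 differences of 0.69 (SE 0.33, adjusted p = 0.182 by edgeR) for IleR, 1.04 (SE 0.33, adjusted p = 0.0616) for LeuR and 0.78 (SE 0.31, adjusted p = 0.0903) for ValR did not pass, although the LeuR libraries did not overlap with Control, as those of IleR and ValR did. Rps4x was at 174 ± 13.7 CPM in Control and 182 ± 16.6 in LeuR (SD, n = 4 and 3). Rpl22l1, the paralog of Rpl22, had 0.34 (SE 0.15, adjusted p = 0.157 by edgeR) for LeuR, with 38.2 ± 4.70 CPM in Control and 48.4 ± 12.2 in LeuR, and Rpl22 was at 78.4 ± 4.49 and 77.1 ± 11.8 CPM. Rpl7l1 was at 35.7 ± 1.90 CPM in Control males and between 35.0 and 37.8 CPM on average in the restricted groups.

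Of the 3 ribosomal proteins under other names, Fau and Rack1 among them, 0 were called in any comparison by edgeR, and the log2 differences of Fau and Rack1 against Control in males lay between −0.11 and 0.16. Of 16 genes for the control of TOP mRNAs, among them Larp1, Mtor and Rptor, 0 were called for IleR and LeuR males and 1 for ValR males, Eif4e, the cap-binding protein, at −0.25 (SE 0.08, adjusted p = 0.0371 by edgeR). Of 16 other TOP mRNAs, mostly translation factors, in IleR males 1 rose and 1 fell, in LeuR males 0 rose and 1 fell, and in ValR males 2 rose and 1 fell. The gene that fell was Nap1l1, a histone chaperone, each time, at −0.65, −0.45 and −0.79 (SE 0.13, 0.13 and 0.12), while Btf3, a subunit of the nascent chain complex, rose by 0.32 in IleR and 0.25 in ValR.

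Of 25 ribosome assembly factors 1 fell for IleR, 1 rose and 1 fell for LeuR and 3 fell for ValR. Bop1, a factor of 60S maturation, fell in IleR and ValR (−0.43 and −0.33), Nhp2, of the H/ACA particles that modify rRNA, in LeuR and ValR (−0.65 and −0.41), and Tsr1, of 40S maturation, in ValR (−0.24). Nop10, also of the H/ACA particles, rose in LeuR (0.37) and was lower in ValR than in LeuR males (−0.38, adjusted p = 0.0481 by edgeR). Of 78 mitochondrial ribosomal proteins 3 rose for IleR, 1 rose and 1 fell for LeuR and 2 rose for ValR. Mrps5 was at 0.28 in IleR and 0.29 in ValR, and Mrpl54 at 0.53 in IleR. Of 303 genes named as ribosomal protein pseudogenes 63 were tested in males and 1, Rps7-ps3, was called (−0.30 in ValR), and such genes took 0.0119% to 0.0176% of the counts of a library. In females 0 genes of any of these lists were called by edgeR. The backgrounds of these male counts are those given for each diet above, and the 3 comparisons share the Control libraries, so that 1 of 25 assembly factors lower for IleR and 3 of 25 for ValR were no larger shares than those of all genes. With the hindbrain score as a covariate 0 of all genes were called lower in IleR, LeuR or ValR males, so every fall named for these lists lost its call, and 3, 11 and 0 genes were called higher. Control did not overlap with any restricted group of males in the score, so that fit cannot tell diet from regional make-up.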

How the data were processed

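The authors deposited expected counts per Ensembl gene ID, 1 table per sex, on mouse build GRCm38.p5. The aligner is not given in the sources used here, and the submitters' notes name R 3.4.3, edgeR and limma. The authors' tables of comparisons, which hold their fold changes and p-values, gave gene symbols alone. The members and lists were chosen with earlier results of these data known.

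Expected counts were rounded, and a gene was kept where all libraries of at least 1 group had 1 count or more, then tested by edgeR 4.0.16 (R 4.3.3) with TMM scaling, the quasi-likelihood test and Benjamini-Hochberg adjustment at 0.05, with the 4 diets of a sex in 1 fit and both sexes in 1 fit for the interaction. CPM were scaled by TMM, and log2 CPM used a prior count of 2. Lengths, positions and shared stretches of 31 bases came from GENCODE M21. Total counts ran from 10672599 to 25722333. Libraries of a group differed beyond counting error in all 73 pairs (chi-square per degree of freedom at least 9.089). The edgeR script was tested on simulated data.

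Named were, for each diet and sex, the 5 largest rises and falls among called members, or the 3 smallest unadjusted p where none was called, paralogs with their parents, the stalk, Rps6, Rpsa, Rps27a and Rps19bp1, the 3 extremes of level and spread, and genes of fixed lists. Alternatives were voom with limma 3.58.1, DESeq2 1.42.0, RLE scaling, TMM without the members, other filters, a threshold of 0.01, fits of the compared groups alone, pseudogene counts added to their parents, the hindbrain score as a covariate and each library left out. The slope on the score and the fit of females without IleR 39 and IleR 40 were chosen after seeing the data. The labels describe polyA-selected libraries in one place and total RNA in another. Protein sequences were not used here, and a few named items are not reported here.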

Additional observations from a re-analysis of the deposited data

Results flagged for a closer look

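The CPM of the named members in groups of 4 to 6 libraries was examined by Dixon's test at the 95% level for 1 library far from the rest, which chance gives in about 1 of 20 groups. Such a library was found in 12 of 252 groups tested. Among males, Rps15 stood at 226 CPM in Control 3, where the other Control libraries lay between 178 and 186. In ValR males, Rpl22l1 stood at 39.2 CPM in ValR 10 against 35.6 to 36.1, and ValR 9 was highest for Rpl7 (187 CPM against 157 to 158), Rps27 (98.8 against 72.8 to 76.7) and Rps28 (77.3 against 56.8 to 59.5).

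Among females, Control 30 was highest for Rpl7l1 (43.1 CPM against 34.4 to 36.6) and Rplp0 (102 against 83.9 to 89.5), and Control 25 for Rps19bp1 (14.0 against 10.4 to 11.4). IleR 42 was highest for Rpl36 (64.6 CPM against 53.4 to 56.2) and Rpl7 (157 against 147 to 149). Rpl6l stood at 2.44 CPM in LeuR 43 against 1.63 to 1.90, and Rps3a2 at 2.74 CPM in ValR 31 against 2.11 to 2.19. The cause was not tested.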

How the results depend on the processing

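At an adjusted p under 0.01 there were 0 called members in IleR males, 0 in LeuR males and 2 in ValR males, and 0 between ValR and LeuR males. DESeq2 called 5 higher for IleR (8.36% of all genes), 9 higher for LeuR (6.74%), 9 lower for ValR (14.2%) and 9 lower between ValR and LeuR males (4.71%), 1 for IleR females and 1 each for the IleR and ValR interactions. A filter by filterByExpr, which tested fewer genes, gave 4 for IleR males, and no filter gave 1 between ValR and LeuR. Fits of only the groups compared gave 0 for LeuR males and 0 between ValR and LeuR. With the hindbrain score as a covariate 0 members were called for IleR, LeuR and ValR males and between ValR and LeuR, and the log2 fold changes for ValR males turned positive for Rps2 (0.10), Rpl12 (0.0514), Rplp1 (0.000148), Rpl41 (0.00464), Rps14 (0.0635) and Rps19bp1 (0.30). Leaving out 1 library at a time gave 0 to 4 members for IleR, 0 to 10 for LeuR and 2 to 9 for ValR males, 0 to 3 between ValR and LeuR, 0 to 1 for IleR females and 0 to 1 for the IleR interaction. Over all settings 394 values of the comparisons kept their call or stayed within 1.5 times of the count, and 49 did not. No paired analysis was possible because no number is shared between groups. The median SE of a member's log2 fold change against Control was 0.10 to 0.11 in males and 0.08 in females.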
